A study of Mus musculus with 4 samples.

Results

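The mitochondrial protein import machinery was described here as 36 of the 56748 genes in the count table. The members were the protein-coding genes whose symbol begins with Tomm or Timm and a digit, together with Samm50, Mtx1, Mtx2, Chchd4, Gfer, Pmpca, Pmpcb, Grpel1, Grpel2, Dnajc19 and Pam16. RNA was sequenced from lungs carrying metastases of 4T1, a mouse triple-negative breast cancer cell line, in 2 saline and 2 cmLumiOpto/PARPi libraries. All mice were BALB/cJ females that had received 4T1-FLuc cells, a luciferase-marked 4T1 line, through the tail vein at 7 weeks of age. Treatment began once metastases were seen and lasted 3 weeks for the treated samples, so the lungs came from older animals. The treated mice were given cmLumiOpto, a light-gated channel gene for the inner mitochondrial membrane carried by exosome-coated AAV with a CD276 antibody, its light-producing substrate ViviRen at 2 mg/kg and olaparib, a PARP inhibitor, at 50 mg/kg. The controls were given saline. The sample titles name saline and tumor in lung, whereas other label fields name PBS for the controls and tumor cells as the material. The paper names saline and lung tissue. The arms differ in all of these agents at once, and neither cmLumiOpto nor olaparib alone was analysed here.

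Most mitochondrial proteins are made in the cytosol and must be imported. They enter through the TOM complex of the outer membrane and are then sorted: by the SAM complex into the outer membrane, by the small TIM chaperones and the MIA disulfide relay in the intermembrane space, by TIM22 into the inner membrane, or by TIM23 and its motor into the matrix, where a peptidase removes the targeting sequence. Presequence import through TIM23 depends on the inner membrane potential, which the cmLumiOpto channel was built to collapse, so the comparison asks how the import genes stood in treated lungs.

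The libraries held between 15263375 and 16755228 counts, and 3 counts, taken as the detection floor for counting error only, equalled 0.173 to 0.204 CPM, a gene's counts relative to its library's TMM-scaled total. Some cell markers separated the arms and others did not. The summed level of 8 alveolar type 2 markers was 464 and 1719 CPM in saline and 2973 and 8328 CPM in treated libraries, with 7 of 8 higher in both treated libraries than in both saline ones. The summed level of 5 fibroblast markers was 2493 and 3680 CPM in saline and 1099 and 1218 CPM in treated libraries, with 5 of 5 lower. None of these markers was at 0 in both saline libraries. Over all genes tested, 27.4% were higher and 27.8% lower in both treated libraries. Markers of mammary tumor epithelium summed to 3025 and 3378 CPM in saline and 2659 and 3818 CPM in treated libraries, which overlapped. Endothelial markers (384 and 472 against 382 and 665 CPM, 5 of 6 overlapping) and macrophage markers (1078 and 1182 against 908 and 1104 CPM, 4 of 6 overlapping) did not separate the arms either. The part of these markers in the values of the import genes was not tested. In bulk tissue, fewer cells of a type and less RNA per cell cannot be told apart.

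The promoters of 4 members are printed to show what the regulatory sequence of an import gene looks like, at genes with different values: Timm10 and Timm8b, higher in both treated libraries, and Tomm20 and Timm23, whose groups overlapped. Each line holds 128 bases in the direction of transcription, from 100 before to 28 after the RefSeq start (GRCm38.p6), at chr2:84826921-84827048 on the plus strand for Timm10, chr9:50603801-50603928 on the plus strand for Timm8b, chr8:126945894-126946021 on the minus strand for Tomm20 and chr14:32201864-32201991 on the minus strand for Timm23. Capitals mark a match on either strand to CCGGAAGT, the core bound by ETS family factors such as GABP, or to the NRF1 motif (GCGC, any base, TGCGC), NRF1 being a regulator of nuclear genes for mitochondria.
Timm10: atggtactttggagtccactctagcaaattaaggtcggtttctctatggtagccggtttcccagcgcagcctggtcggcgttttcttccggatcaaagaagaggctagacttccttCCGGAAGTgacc
Timm8b: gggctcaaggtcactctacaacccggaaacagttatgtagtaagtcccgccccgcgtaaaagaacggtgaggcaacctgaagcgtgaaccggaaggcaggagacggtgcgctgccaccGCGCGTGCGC
Tomm20: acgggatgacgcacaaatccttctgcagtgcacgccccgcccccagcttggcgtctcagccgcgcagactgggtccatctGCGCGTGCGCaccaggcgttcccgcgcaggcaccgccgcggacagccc
Timm23: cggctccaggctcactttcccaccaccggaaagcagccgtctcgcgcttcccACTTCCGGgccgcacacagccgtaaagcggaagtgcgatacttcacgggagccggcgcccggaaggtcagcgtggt
The ETS core lay after the start of Timm10 and before that of Timm23, and the NRF1 motif after the start of Timm8b and before that of Tomm20. Of 32 members with a RefSeq window from 250 bases before to 50 after the start, 8 (25%) held the ETS core. The share was 4.31% of all 27025 genes with such a window and 8.47% of 11022 tested genes, a gene counting once if any window matched. The 8 members were Mtx2, Pmpcb, Timm10, Timm10b, Timm23, Timm29, Timm8a2 and Tomm70a, which include members that were higher, lower and overlapping after treatment. The NRF1 motif stood in 4 members (12.5%), Chchd4, Pam16, Timm8b and Tomm20, against 5.19% of all genes with a window and 10.5% of tested genes. A palindromic CRE (TGACGTCA) and the ATF4 composite element (TGATGNAA) matched in 0 of the 32, against 3.40% and 2.81% of tested genes. The YY1 motif AAGATGGC matched in 2 (6.25%), against 3.19% of all genes with a window and 4.83% of tested genes. All motifs were searched on both strands, and a match describes the letters of the window, not a site or a cause.

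Of the 36 members, 33 had enough counts to be tested among 15167 genes. Tomm6, a small TOM subunit, had no count in saline (0 and 0) and 2 and 0 counts after treatment. Tomm20l, a relative of the Tomm20 receptor, had 1 count in a single treated library, and Timm8a2, a copy of Timm8a1, 1 count in a single saline library. All 3 were thus under the floor in every library. Tomm6 shares 1648 bases on its own strand with Gm21981, a protein-coding gene listed with 0, 0, 1 and 0 counts, so its low count is uncertain where reads on both genes were discarded.

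None of the 33 tested members passed an adjusted p of 0.05 in the quasi-likelihood test of edgeR, Benjamini-Hochberg adjusted, nor did any of the 15167 genes (0% called). The members' adjusted p ran from 0.138 to 0.983, and 0.138 was also the smallest of any gene. At an unadjusted p under 0.05, 12 of 33 members (36.4%) were higher and 0 lower, against 9.21% of all genes higher and 12% lower. With 1 library left out, the number higher was 5 without saline 1 (9.2% of all genes higher, and 1 member lower), 7 without saline 2 (4.22%), 7 without treated 1 (4.12%) and 8 without treated 2 (9.82%). DESeq2, edgeR's exact test and its likelihood ratio test each called 3 of the 33 members, Tomm5, Timm13 and Timm10b, all higher. These tools called 949 (6.26%), 815 (5.37%) and 865 (5.7%) of the 15167 genes.

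In 20 of 33 members (60.6%) each treated library exceeded each saline library, in 1 (3.03%) each was lower, and the groups overlapped in 12 (36.4%). Over all genes tested, 27.4% lay above and 27.8% below. The median log2 fold change of the members was 0.31 and that of all genes 0.02, so the members as a list stood modestly higher. Fold changes above 1 on the log2 scale were no more frequent among members, at 6.06%, than among all genes, at 7.19%. Summed over the members, saline lungs held 1574 and 1686 CPM and treated lungs 1865 and 1950 CPM. Import genes took 0.156% and 0.162% of all counts in saline and 0.193% and 0.196% in treated lungs.

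**Figure D1:**
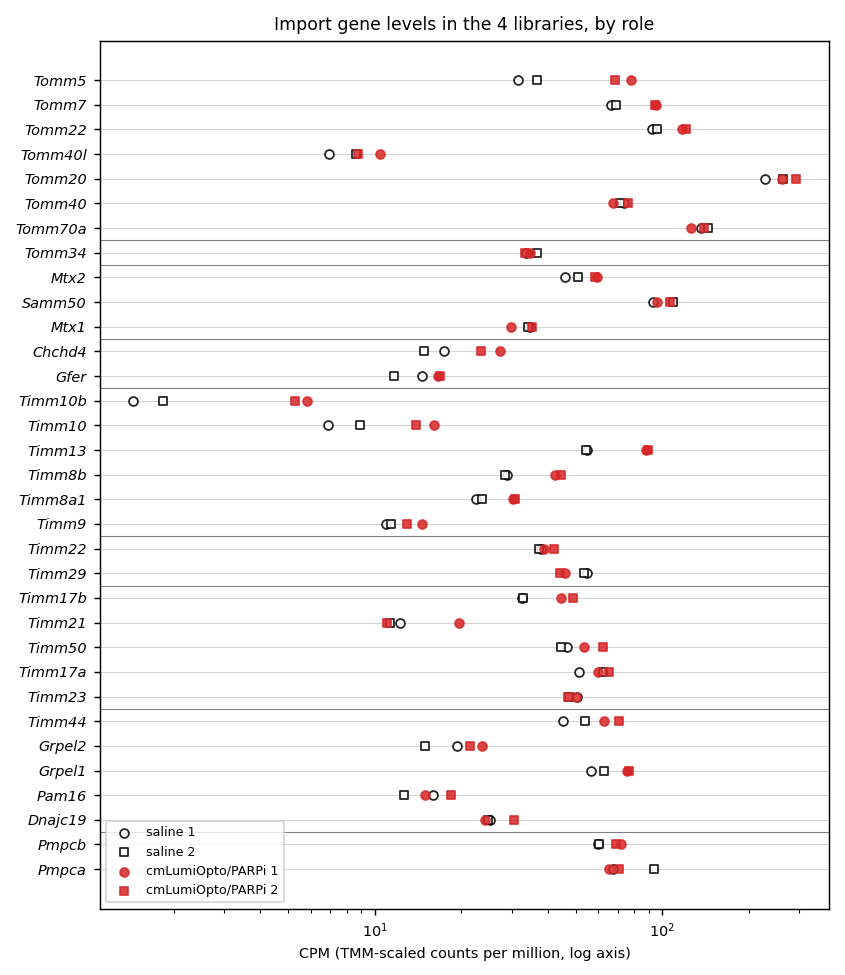
Level of the 33 tested import genes in each library, in CPM on a log axis, grouped by role from the outer membrane at the top to the matrix at the bottom. Open symbols are the 2 saline libraries and red symbols the 2 cmLumiOpto/PARPi libraries; for all 6 small TIM chaperones the red symbols lie to the right of both open ones.

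At the outer membrane, Tomm5, Tomm7, Tomm22 and Tomm40l lay above saline in both treated libraries, and Tomm20, Tomm40 and Tomm70a overlapped. These 7 tested TOM genes had a median log2 fold change of 0.31. Tomm5, on GRCm38 chromosome 4 at 45105208 to 45108114 (minus strand), encodes a small subunit that helps assemble the complex around its channel. It measured 31.5 and 36.8 CPM in saline and 77.6 and 68.5 CPM in treated libraries. Its levels in treated lungs exceeded the highest saline value by a wide margin, with a log2 fold change of 1.10 ± 0.16 (SE, n = 2 per group) and an adjusted p of 0.138 in edgeR's quasi-likelihood test. Tomm7, a small subunit that modulates TOM stability and PINK1 retention, measured 66.6 and 69.0 CPM in saline and 95.3 and 94.2 CPM in treated libraries. The difference was again larger than the gap between replicates, at 0.48 ± 0.12 (adjusted p 0.145 by edgeR). Tomm22, the central receptor that docks the others, measured 91.9 and 96.1 CPM against 118 and 121 CPM, 0.34 ± 0.12 (adjusted p 0.205 by edgeR). Tomm40l, a paralog of the channel, was also higher in both treated libraries, at 0.31 ± 0.27.

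Tomm40, the beta-barrel channel through which nearly all precursors pass, measured 73.4 and 71.1 CPM in saline and 67.3 and 76.3 CPM in treated libraries. The treated values fell on both sides of the saline ones, with a log2 fold change of -0.01 ± 0.14. Tomm20, the presequence receptor often stained as the outer membrane marker, measured 227 and 262 CPM in saline and 260 and 292 CPM in treated libraries. One treated library lay just under the higher saline library, at 0.18 ± 0.15 (adjusted p 0.533 by edgeR). Tomm70a, the receptor for carrier precursors that lack a presequence, measured 136 and 145 CPM against 125 and 140 CPM, at -0.08 ± 0.13, with the sign of its difference depending on the scaling. Tomm34, a cytosolic chaperone co-factor, overlapped between groups at -0.04 ± 0.15.

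The SAM complex, which folds beta-barrel proteins such as Tomm40 into the outer membrane, did not separate as a group. Samm50, its barrel, measured 92.6 and 109 CPM in saline and 95.6 and 107 CPM in treated libraries, at 0.01 ± 0.15. Of its metaxin partners, Mtx2 was higher in both treated libraries, at 0.28 ± 0.14, whereas Mtx1 overlapped at -0.08 ± 0.17. Mtx2 was thus the single gene of these 3 that lay above saline in both treated libraries in this fit. After a correction for gene length and mean level, given with the length values, Samm50 lay above as well, at 0.25.

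In the intermembrane space, all 6 tested small TIM chaperones, which ferry hydrophobic precursors between the membranes, were higher in both treated libraries than in both saline ones, with a median log2 fold change of 0.65, and 5 of them had an unadjusted p under 0.05. This median was the highest of any role before a correction for gene length and mean level, but not after it, as given with the length values. Timm13, which works in a hexamer with the Timm8 proteins (GRCm38 chromosome 10, 80899450 to 80900969, minus strand), measured 54.9 and 54.5 CPM in saline and 88.1 and 88.9 CPM in treated libraries. Replicates were nearly equal and the groups far apart, at 0.69 ± 0.13 (adjusted p 0.138 by edgeR). Its partner Timm8b measured 28.8 and 28.5 CPM against 42.4 and 44.5 CPM, at 0.60 ± 0.15 (adjusted p 0.142 by edgeR). Timm8a1, the mouse counterpart of the gene mutated in human deafness-dystonia syndrome, measured 22.6 and 23.7 CPM against 30.3 and 30.8 CPM, at 0.40 ± 0.16 (adjusted p 0.232 by edgeR).

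In the other chaperone hexamer, Timm10 measured 6.90 and 8.93 CPM in saline and 16.1 and 13.9 CPM in treated libraries, at 0.92 ± 0.26 (adjusted p 0.156 by edgeR). Timm9, with which it forms the ring, was higher in both treated libraries by less, at 11.0 and 11.4 CPM against 14.6 and 12.9 CPM, 0.30 ± 0.22 (adjusted p 0.459 by edgeR). Whether the partners differ is given with their ratio. Timm10b, which links this ring to the TIM22 complex (GRCm38 chromosome 7, 105640056 to 105643637, plus strand), had the largest log2 fold change of the members, 1.76 ± 0.38 (adjusted p 0.138 by edgeR), from the lowest level of any tested member. It measured 1.44 and 1.84 CPM in saline and 5.81 and 5.29 CPM in treated libraries. Timm10b shares 3086 bases on its own strand with Gm45799, a protein-coding gene listed with 1, 0, 1 and 1 counts. It also shares 361 bases on the opposite strand with Arfip2, listed with 726, 710, 631 and 726 counts. The level of Timm10b is thus uncertain where shared reads were dropped or assigned to the other gene, in either direction.

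The MIA relay, which oxidizes the cysteines of small TIM chaperones so that they fold and stay in the intermembrane space, had both of its members higher in the treated libraries before the length correction, and Chchd4 alone after it. Chchd4, the oxidoreductase that receives the precursors, measured 17.4 and 14.9 CPM in saline and 27.3 and 23.3 CPM in treated libraries. Both treated values exceeded both saline values, at 0.65 ± 0.20 (adjusted p 0.171 by edgeR). Gfer, the sulfhydryl oxidase that recharges Chchd4, measured 14.6 and 11.7 CPM against 16.6 and 16.9 CPM, at 0.35 ± 0.22 (adjusted p 0.400 by edgeR).

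**Figure D2:**
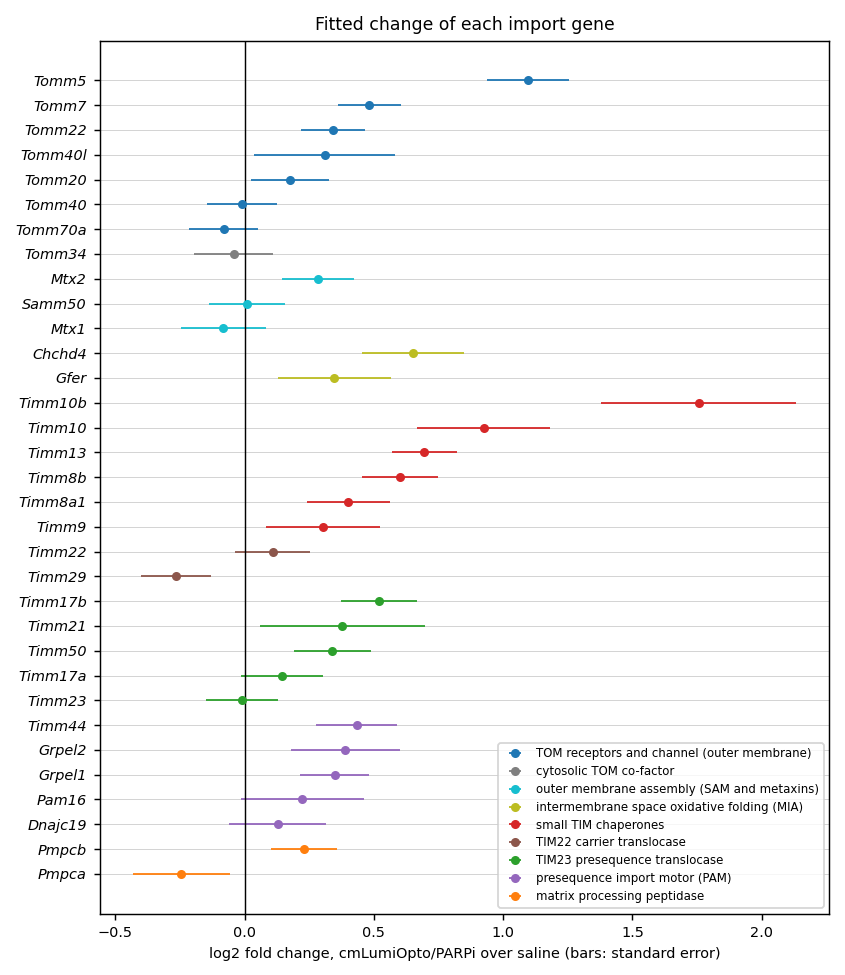
Log2 fold change of each tested import gene, cmLumiOpto/PARPi over saline, with its standard error from edgeR as bars, colored by role. The small TIM chaperones (red) lie between 0.30 and 1.76, whereas Tomm40, Tomm34, Samm50 and Timm23 lie between -0.04 and 0.01.

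At the inner membrane, the 2 tested members of TIM22, which inserts carrier proteins, went apart. Timm22, the channel, measured 37.8 and 37.2 CPM in saline and 38.9 and 42.0 CPM in treated libraries, a small difference of 0.11 ± 0.15. Timm29, a subunit that stabilizes the complex, measured 54.7 and 53.6 CPM against 45.8 and 44.3 CPM, at -0.27 ± 0.13 (adjusted p 0.309 by edgeR). It was the single member lower in both treated libraries before the length correction. Timm29 shares 107 bases on the opposite strand with Yipf2, listed with 233, 196, 299 and 231 counts, so shared reads may affect its level. Among the 23 tested members not overlapped by an expressed gene, 0 were lower in both treated libraries.

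In TIM23, the translocase for precursors with a presequence, the channel and the regulatory subunits differed in their values. Timm23, the channel, measured 50.4 and 47.5 CPM in saline and 50.2 and 47.1 CPM in treated libraries, with the arms interleaved and a difference of -0.01 ± 0.14. Timm17b, a subunit of the translocase core, measured 32.4 and 32.8 CPM against 44.6 and 48.9 CPM, at 0.52 ± 0.15 (adjusted p 0.158 by edgeR). Its paralog Timm17a measured 51.2 and 62.2 CPM against 59.7 and 65.5 CPM and overlapped, at 0.14 ± 0.16 (adjusted p 0.633 by edgeR). Timm50, the presequence receptor that also keeps the channel closed, measured 46.7 and 44.6 CPM against 53.4 and 62.0 CPM, at 0.34 ± 0.15 (adjusted p 0.259 by edgeR). Timm21, which connects TIM23 with TOM, overlapped: 1 treated library measured 19.6 CPM, and the other, at 11.1 CPM, stood beside the saline libraries at 12.3 and 11.3 CPM.

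The import motor pulls precursors into the matrix with ATP. Of its 5 members, 3 were higher in both treated libraries and 2 overlapped, with a median log2 fold change of 0.35. Timm44, the anchor of the motor at the channel, measured 45.3 and 53.7 CPM in saline and 63.0 and 70.6 CPM in treated libraries, at 0.43 ± 0.16 (adjusted p 0.205 by edgeR). Grpel1, a nucleotide exchange factor of the motor chaperone, measured 56.7 and 62.8 CPM against 75.4 and 76.8 CPM, at 0.35 ± 0.13 (adjusted p 0.220 by edgeR), and its paralog Grpel2 stood at 0.39 ± 0.21. Dnajc19 and Pam16, the J-domain pair that regulates the chaperone, overlapped, with 24.1 and 30.5 CPM for Dnajc19 in treated libraries against 25.2 and 24.8 CPM in saline. The groups of Pam16 overlapped too, at 16.0 and 12.6 CPM against 14.9 and 18.5 CPM.

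Of the matrix peptidase that clips presequences, Pmpcb, the catalytic subunit, was higher in both treated libraries at 0.23 ± 0.13, and Pmpca, the substrate-binding subunit, overlapped at -0.25 ± 0.19. One saline library had 93.6 CPM of Pmpca and the other 67.6 CPM.

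Compared per length, Tomm7, Tomm22, Timm8b and Tomm20 led the saline libraries with mean levels of 183, 173, 168 and 152 TPM, counts per base scaled to a common total. Tomm5 and Timm13 followed at 120 and 121 TPM. The channels Timm23 and Tomm40 stood at 83.4 and 48.7 TPM, and Timm10b was the lowest of the tested members at 1.39 TPM.

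Ratios of partner genes within a library do not depend on the scaling of libraries. On the log2 scale, the ratio of Timm9 to Timm10 was 0.67 and 0.35 in saline and -0.14 and -0.10 in treated libraries. That of Timm17a to Timm17b was 0.66 and 0.92 against 0.42 and 0.42, and that of Pmpca to Pmpcb 0.17 and 0.63 against -0.14 and 0.03. Tomm70a to Tomm20 gave -0.73 and -0.86 against -1.05 and -1.06. In these 4 of the 6 pairs compared the arms did not overlap, each with a two-sided exact permutation p of 0.333, the smallest that 2 against 2 libraries can give, and 0.5 after adjustment over the pairs. The partners differ in length, and the ratios were not corrected for it. After the length correction described next, the log2 fold changes of Timm17a and Timm17b were 0.39 and 0.38, and those of Tomm70a and Tomm20 0.29 and 0.39. Those of Timm9 and Timm10 were 0.19 and 0.54, and those of Pmpca and Pmpcb -0.16 and 0.36. The other pairs, Tomm40 to Tomm40l and Grpel1 to Grpel2, overlapped (exact permutation p 0.667 and 1).

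Gene length moved with the difference between the arms. Over all tested genes, Spearman's rho of length and log2 fold change was -0.37, with shorter genes higher in the treated libraries, and over the 33 members it was -0.43, both from the same 4 libraries. When genes were split into 5 equal groups by length, the shortest had a median of 0.31 over all genes, and 47.9% of them lay above in both treated libraries. There the 8 members had a median of 0.54 and 7 lay above. Among the longest genes the median was -0.27 and that of the 2 members 0.03. In all, 26 of the 33 members exceeded the median of their own length group, which by definition splits all genes of the group evenly. Within its group Timm10b stood at percentile 98.1, Chchd4 at 91.4, Tomm5 at 89.3 and Timm10 at 85.9, but Tomm7 at 64.7 and Tomm22 at 53.0.

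**Figure D3:**
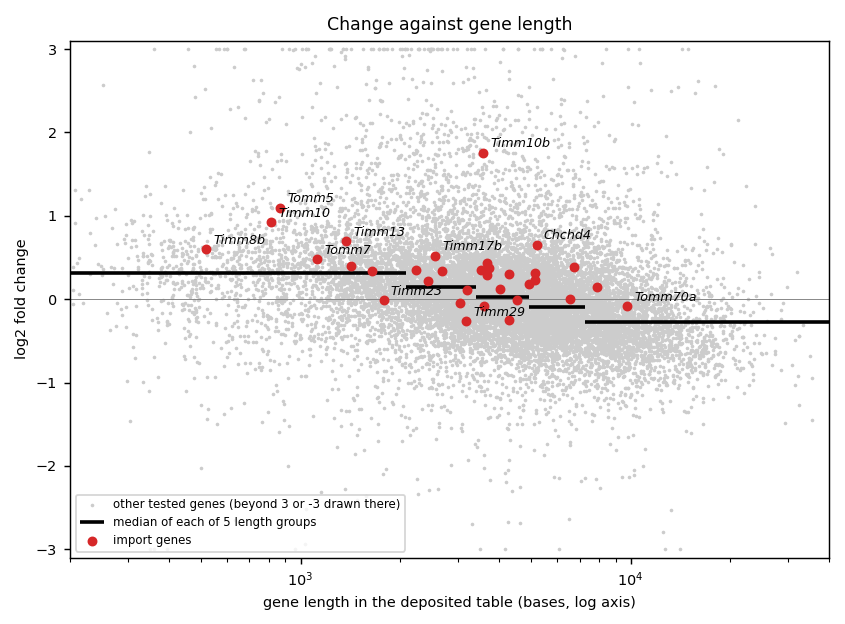
Log2 fold change against the length of each gene in the count table (bases, log axis; axis cut at both ends), for all tested genes in grey and the 33 import genes in red, with black lines for the median of each of 5 length groups. The lines step down from 0.31 to -0.27, and Tomm5, Timm10, Timm8b, Timm13 and Tomm7 lie among the shortest genes.

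A loess correction of each library, called the length correction here, was fitted on gene length and mean level together. It therefore removes more than a trend with length. Before the correction, 26 of 33 members (78.8%) were over 0, against 52% of all genes. After it, 28 of 33 members were over 0, and their median was 0.23 against -0.01 for all genes. The small TIM chaperones still had 6 of 6 above in both treated libraries, against 24.1% of all genes. Their median was 0.32 in place of 0.65, and 2 in place of 5 had an unadjusted p under 0.05 (7.64% of all genes higher after the correction). This median of 0.32 was under the medians of the motor, 0.36, and of MIA, 0.38. Gfer, at 0.11, then overlapped, so that 1 of the 2 MIA genes remained above. Tomm40l, at 0.18, and Timm22, at 0.04, also overlapped after the correction. Timm10b stood at 1.45, Tomm5 at 0.75, Chchd4 at 0.65, Timm10 at 0.54 and Timm13 at 0.42, whereas Tomm7 stood at 0.17 and Tomm22 at 0.12. The receptors Tomm20 and Tomm70a moved the other way, to 0.39 and 0.29, both then higher in both treated libraries. Timm17a, at 0.39, was then also higher in both, beside Timm17b at 0.38, and so was Samm50, at 0.25. Timm29 stood at -0.32, Timm23 at -0.24 and Tomm34 at -0.14, all 3 then lower in both treated libraries. No gene passed an adjusted p of 0.05 in edgeR's quasi-likelihood test after the correction, with 2312 at an unadjusted p under 0.05. The order of the TOM genes thus depended on this correction for length and mean level. The source of the length trend was not tested.

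**Figure D4:**
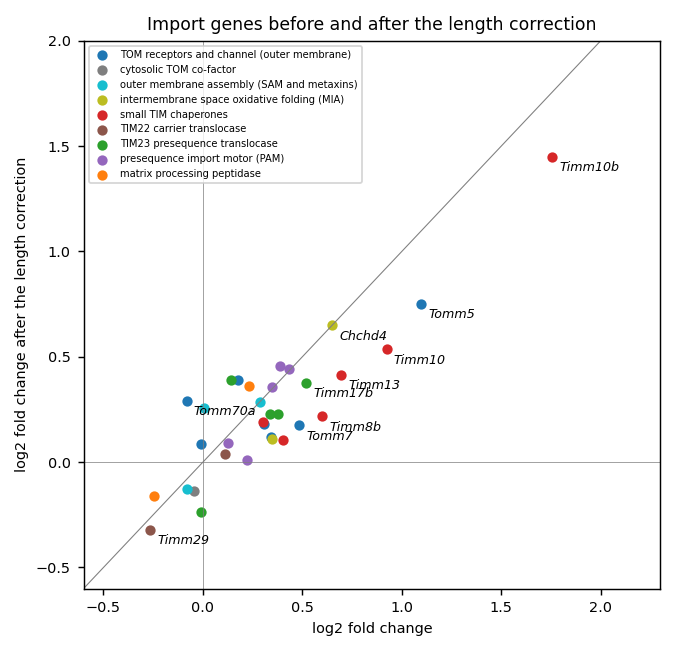
Log2 fold change of the 33 import genes after the length correction (vertical) against that before it (horizontal), colored by role, with the line of equal values. Timm10b, Tomm5 and Timm10 stay highest or near it although below the line, Chchd4 lies on it at 0.65, and Tomm70a moves from -0.08 to 0.29.

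Genes that work with the import machinery but were outside the member rule showed a mixed picture. Of 16 such partners, 8 were higher and 3 lower in both treated libraries and 5 overlapped, with a median log2 fold change of 0.09. At an unadjusted p under 0.05 in edgeR's quasi-likelihood test, 4 were higher and 1 lower. Over all genes tested, 27.4% lay above and 27.8% below in both treated libraries, and 9.21% were higher and 12% lower at that p. Hspe1, the matrix co-chaperonin, measured 117 and 122 CPM in saline and 227 and 188 CPM in treated libraries, at 0.80 ± 0.15 (adjusted p 0.138 by edgeR). Its chaperonin Hspd1, with which it forms a folding chamber, measured 450 and 408 CPM against 462 and 428 CPM and overlapped at 0.05 ± 0.15. Hspa9, the chaperone that the import motor drives, measured 414 and 433 CPM against 301 and 402 CPM, lower in both treated libraries at -0.27 ± 0.18 (adjusted p 0.432 by edgeR).

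Immp1l, an inner membrane peptidase subunit, measured 12.7 and 15.8 CPM against 29.3 and 21.3 CPM, at 0.83 ± 0.24. Romo1, a small inner membrane protein of TIM23, measured 36.4 and 37.3 CPM against 52.4 and 57.8 CPM, at 0.58 ± 0.14, so both lay higher in both treated libraries. Pitrm1, which degrades cleaved presequences, measured 91.6 and 106 CPM against 61.3 and 75.4 CPM, at -0.53 ± 0.16 (adjusted p 0.173 by edgeR). Mtx3, a metaxin, stood at -0.22 ± 0.23. No partner passed an adjusted p of 0.05 in edgeR's quasi-likelihood test.

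Other mitochondrial lists give the setting. Of 7 tested genes of MICOS, which shapes the cristae, 6 were higher in both treated libraries, with a median of 0.25. Of 13 genes of general mitochondrial content, 4 were higher and 2 lower, with a median of 0.08. Of 9 mitochondrial proteases and stress chaperones, 4 were higher and 2 lower, with a median of 0.10. For all genes tested these shares were 27.4% higher and 27.8% lower in both treated libraries, with a median of 0.02. The share of counts on the mitochondrial genome was 1.13% and 1.17% in saline and 2.20% and 1.34% in treated libraries. Its part in the values of the import genes was not tested.

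**Figure D5:**
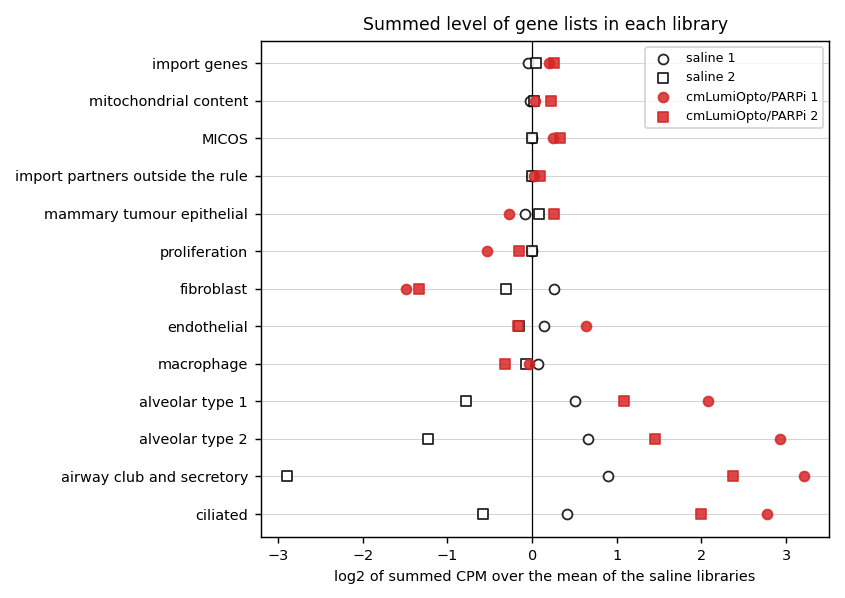
Summed level of the import genes and of other gene lists in each library, as log2 of summed CPM over the mean of the 2 saline libraries. Open symbols are saline and red symbols cmLumiOpto/PARPi; the import genes lie within a narrow range (1574 to 1950 CPM), while airway, ciliated and alveolar markers are spread over several log2 units and fibroblast markers lie lower in both treated libraries.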

How the data were processed

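Bulk RNA sequencing of lungs with 4T1 metastases gave 4 libraries, 2 per arm, which the labels number as separate samples. The authors aligned the reads with HISAT2 (the processing notes also name TopHat2 and the build mm39, the paper GRCm38) and deposited raw read counts per gene, with gene length, position and type. The counter and its strand setting are not given in the sources used here, so reads of overlapping genes may be shared or lost: 24 members overlap another gene, 12 of them one with 10 or more counts in a library. Positions in the table rarely matched GENCODE M21 (2.76% of 52073 genes), so coordinates are those of GENCODE M21, GRCm38.

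Counts were tested in R 4.3.3 with edgeR 4.0.16 (TMM scaling, low counts removed by filterByExpr at a minimum of 10, the default glmQLFit followed by glmQLFTest, p-values adjusted over all 15167 genes by Benjamini-Hochberg, threshold 0.05). CPM used TMM factors, TPM the deposited gene lengths. Other settings tried were DESeq2 1.42.0, edgeR's likelihood ratio and exact tests, further scalings and filters, a replicate block and leaving out each library. A loess correction on length and mean level together (span 0.5), called the length correction, was also tried. The spread within an arm exceeded sampling noise (chi-square per degree of freedom 25.2 in saline, 45.4 in treated libraries). The labels do not tie replicates to animals, so p-values measure only the spread between these samples, which may be technical. On simulated counts for this comparison, 78% of 200 genes changed by a log2 fold of 2 were recovered among 14874 genes (14.8% of calls false), and 7% of those changed by a log2 fold of 1 among 14866 genes (22.2% false).

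The members and lists were chosen with earlier results of these data known. Every member is named, and values in every library are given for the 12 members with the smallest p, for Tomm20, Tomm40, Tomm22, Timm23, Timm50, Timm17a and Timm17b, and for others where the description of a role turns on them. Of the partner list, up to 3 genes per direction and Hspa9, Hspd1 and Hspe1 are named. Promoter windows are those of RefSeq for GRCm38.p6.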

Additional observations from a re-analysis of the deposited data

How the results depend on the processing

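With 2 libraries per arm, the calls depended on the test. No gene passed under edgeR's quasi-likelihood test, its non-legacy form, RLE or upper quartile scaling, a CPM filter or the length correction. DESeq2 called 949, the exact test 815, the likelihood ratio test 865, no filter on low counts 2000 (4 import genes, Timm10 added to the 3 named), and leaving out 1 library 0 to 31 (0 import genes). A replicate block called 1822 genes (12%), among them 5 of 33 import genes (Tomm5, Timm13, Timm10b, Timm8b and Tomm7). With the length correction it called 404 (2.66%), none of them import genes. The numbers mark no shared animal or day and only 2 pairs exist, so they do not pair the libraries. Deviations of the libraries numbered 1 correlated at Spearman's rho 0.30 over all genes and -0.09 over import genes.

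The members' median log2 fold change was 0.42 under upper quartile scaling, which moved the median of all genes to 0.13, so that relative to it the members stood at 0.29, as before. It was 0.23 with the length correction, 0.22 with the block and that correction, 0.34 over the 23 tested members not overlapped by an expressed gene (an alternative chosen after seeing the data) and 0.26 to 0.30 leaving out 1 library. The count with both treated libraries below was 3 with the length correction, with or without the block, and 2 to 6 leaving out 1 library. Members higher at an unadjusted p under 0.05 numbered 5 to 8 in place of 12, against 4.12% to 9.82% of all genes, and 1 was lower without saline 1. With 1 library left out, the lone library of that arm is assumed to vary like the other arm.

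Signs turned for members near 0. Under upper quartile scaling Tomm70a was 0.024, Tomm40 0.096, Timm23 0.095, Tomm34 0.063 and Mtx1 0.023. With the length correction Tomm70a was 0.29 and Tomm40 0.087, and with the block added Tomm70a was 0.29 and Tomm40 0.086. Without the filter Samm50 was -0.0029. Leaving out 1 library, Samm50 ran from -0.12 to 0.11, Tomm40 ran from -0.12 to 0.077, Timm17a ran from -0.0056 to 0.28, Timm23 ran from -0.068 to 0.019, Tomm34 ran from -0.12 to 0.0067, Mtx1 ran from -0.24 to 0.038, Dnajc19 ran from -0.074 to 0.29, Timm21 ran from -0.093 to 0.71 and the log2 ratio of Grpel1 to Grpel2 ran from -0.31 to 0.21.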
